A study of Sus scrofa with 59 samples.

Results

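The cathepsins described here are 5 protease genes, CTSB, CTSD, CTSH, CTSK and CTSL, chosen by gene symbol out of 6765 genes named on the array. CTSB, CTSD, CTSH and CTSK each had 1 probe set under that symbol. The probe set asked for as CTSL carries the symbol CTSV on the platform. RefSeq lists CTSL, CTSL1 and CTSL2 as synonyms of that gene record and gives the symbol CTSL to another gene, to which no probe set was annotated. It is called CTSV below. All 5 probe sets passed the filter on dim probe sets.

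The data are array profiles of longissimus dorsi, a back muscle cut as loin, from 59 pigs of a cross labelled LD/LW x Duroc. The animals were raised together, were fed ad libitum and were 170 days old, and the tissue was frozen in liquid nitrogen at slaughter. Each pig gave 1 Affymetrix array and all pigs form 1 group, because the labels used here give no treatment, trait value, sex or batch for a pig. By its title, the series concerns links between early postmortem expression and composition or quality traits, and the question asked here is which of these proteases vary together and with which gene groups.

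Cathepsins are proteases that mostly work inside the lysosome, where they break down proteins delivered by endocytosis and autophagy. CTSB, CTSH, CTSK and CTSV are cysteine proteases held in check by cystatins and stefins, and CTSD is an aspartic protease. CTSB and CTSH also act as exopeptidases, and CTSK is known for cleaving native collagen in bone resorption. In muscle, cathepsins are made by the fibres and by the macrophages and fibroblasts between them, and they have long been studied beside the calpains for their part in meat ageing.

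Arrays were similar to each other, with medians from 6.23 to 6.30 log2 and correlations between any pair from 0.969 to 0.995. The 13 measured genes common to all muscle fibres averaged from 7.24 to 14.62 log2 each over the pigs, and the mean of the list ran from 12.61 to 13.07 log2 between pigs. Macrophage and leukocyte markers were dimmer. The array held 17 of 24 such markers. The 12 that passed the filter had a list mean from 6.17 to 7.94 log2 between pigs, and CD14, PTPRC, ITGB2, FCGR1A and SPI1 fell below the filter. The extracellular matrix list had 17 of 26 genes measured and a list mean from 8.88 to 10.07 log2. In a sample of whole muscle, fewer cells of a type and less RNA per cell cannot be told apart.

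All values of the cathepsins are on the log2 scale of the deposited table. CTSB was lowest at 11.33 in pig 2, had a median of 11.70 and was highest at 12.43 in pig 36, with an SD of 0.23 (n = 59). CTSH, whose product trims proteins from the amino end, ran from 7.24 in pig 2 over a median of 7.84 to 9.03 in pig 36, with an SD of 0.43 (n = 59). Pigs 36 and 52 were the highest pair for both genes, and pigs 2 and 47 were the lowest pair for both.

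CTSK ran from 7.66 in pig 49 over a median of 8.28 to 9.51 in pig 19, with an SD of 0.36 (n = 59). Its highest pair was pigs 19 and 44, at 9.51 and 9.36, and the next pig stood at 8.96. CTSD ran from 9.33 in pig 47 over a median of 9.89 to 10.63 in pig 20, with an SD of 0.28 (n = 59). CTSV ran from 9.74 in pig 41 over a median of 10.59 to 11.39 in pig 36, with an SD of 0.32 (n = 59), and its highest pair was again pigs 36 and 52. From the lowest to the highest pig CTSB spanned 1.10 log2, CTSD 1.30, CTSV 1.64, CTSH 1.79 and CTSK 1.85. The median SD over all 12000 probe sets tested was 0.21.

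**Figure D1:**
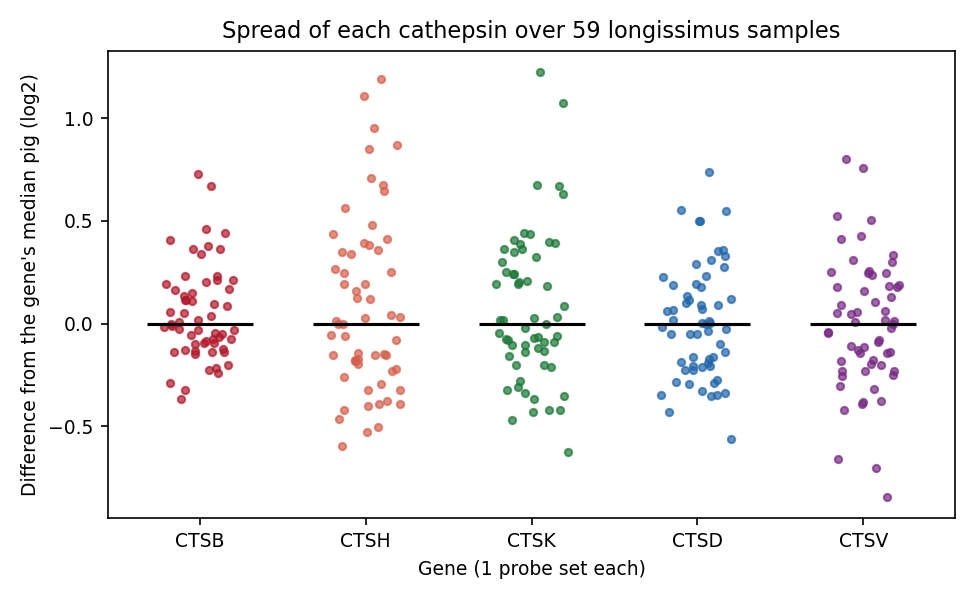
Difference of each pig from the gene's median, in log2, for the 5 cathepsins; each point is 1 of 59 pigs and the bar is the median. CTSB stayed within 1.10 log2 from lowest to highest pig, CTSH and CTSK spread over 1.79 and 1.85 log2.

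Each cathepsin was then set against scores of gene lists that hold no cathepsin. A score is the mean of a list's standardised genes, scaled to an SD of 1 over the pigs. The slope on a score, in log2 per SD, was fitted with limma for all probe sets tested, with Benjamini-Hochberg adjustment across the whole set and a threshold of 0.05. Permutation p-values are two-sided, and 1e-05 is the smallest that 100000 resamples can give. In all, 60 correlations between the 5 genes and 12 scores were computed.

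Of the 5 cathepsins, 3 were higher in pigs with a higher macrophage score, against 6.31% of all 11988 probe sets tested, and 0 were lower, against 1.5%. CTSH had the steepest slope, at 0.31 ± 0.04 log2 per SD (SE, n = 59, limma adjusted p = 3.75e-09), with r = 0.730 and rho = 0.743 (permutation p = 1e-05 for each). CTSB gained 0.15 ± 0.02 log2 per SD (limma adjusted p = 1.14e-06), with r = 0.658 and rho = 0.676 (permutation p = 1e-05 for each). CTSK gained 0.18 ± 0.04 (limma adjusted p = 0.00107), with r = 0.507 (permutation p = 7e-05) and rho = 0.567 (permutation p = 1e-05). The part of macrophage content in these levels was not tested.

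The same macrophage score left CTSD and CTSV without a call. CTSD had r = 0.143 (permutation p = 0.281) and rho = 0.141 (p = 0.288), with a limma adjusted p of 0.590. CTSV had r = 0.101 (permutation p = 0.448) and rho = 0.064 (p = 0.629), with a limma adjusted p of 0.733. Without pigs 36 and 63, the 2 farthest from the median score, r was 0.690 for CTSH, 0.591 for CTSB, 0.492 for CTSK, 0.092 for CTSD and -0.019 for CTSV. The first 3 kept their calls there, and they also kept them without pigs 36 and 52.

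AIF1, a calcium-binding protein of macrophages, is 1 of the 12 genes in the score. It gave the same order of the 5 cathepsins as the score, so the order was not checked independently. AIF1 correlated at r = 0.787 with CTSH, 0.731 with CTSB and 0.581 with CTSK, against 0.211 with CTSD and 0.078 with CTSV. For CTSH, CTSB and CTSK it had the highest r of the list. Of the 12 macrophage genes, 11 passed the test as positive with CTSH, 10 with CTSB and 9 with CTSK, at median r of 0.663, 0.593 and 0.462. The share of all probe sets that passed as positive was 14% with CTSH, 14.8% with CTSB, 10.8% with CTSK, 21.3% with CTSD and 13.2% with CTSV. With CTSD and CTSV the 1 gene of 12 that passed was the scavenger receptor CD163, at r = 0.353 and 0.404. CD163 had a lower r with CTSK (0.320), so not every marker kept the order of the score.

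CTSK was the cathepsin closest to the extracellular matrix score. Its slope was 0.30 ± 0.03 log2 per SD (SE, n = 59, limma adjusted p = 3.29e-13), with r = 0.822 and rho = 0.798 (permutation p = 1e-05 for each), and by r it ranked 20 among 11980 probe sets tested. Like the macrophage score, the matrix score took in 3 of the 5 cathepsins, against 10% of all probe sets tested, with 0 lower, against 5.55%. CTSH gained 0.20 ± 0.05 (limma adjusted p = 0.00287), with r = 0.465 (permutation p = 0.0002) and rho = 0.521 (permutation p = 3e-05). CTSB gained 0.09 ± 0.03 (limma adjusted p = 0.0269), with r = 0.374 (permutation p = 0.00357) and rho = 0.439 (permutation p = 0.00059). The CTSB call ended without pig 19 (0.07 log2 per SD, limma adjusted p = 0.0717). It was kept without pigs 19 and 44 together (r = 0.398, limma adjusted p = 0.0199).

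For CTSD and CTSV the matrix slopes were near 0, with r = -0.106 (permutation p = 0.424) and rho = -0.131 (p = 0.32) for CTSD. CTSV gave r = -0.103 (permutation p = 0.436) and rho = -0.183 (p = 0.167). Without pigs 19 and 44, the 2 with the most extreme matrix scores and also the 2 highest for CTSK, r for CTSK was 0.763 (limma adjusted p = 1.28e-09). CTSH then had r = 0.451, CTSB 0.398, CTSD -0.134 and CTSV -0.163. Of 17 matrix genes, 14 passed as positive with CTSK at a median r of 0.671, and THBS2, at 0.067, was the lowest of the 17. With CTSH 9 passed as positive (median r = 0.321), with CTSB 6 (0.256) and with CTSV 0 (-0.042). The share of all probe sets positive was 10.8% with CTSK, 14% with CTSH, 14.8% with CTSB and 13.2% with CTSV. With CTSD 1 of the 17 passed, as negative, which was COL15A1 (r = -0.517, against 17.4% of all probe sets negative).

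**Figure D2:**
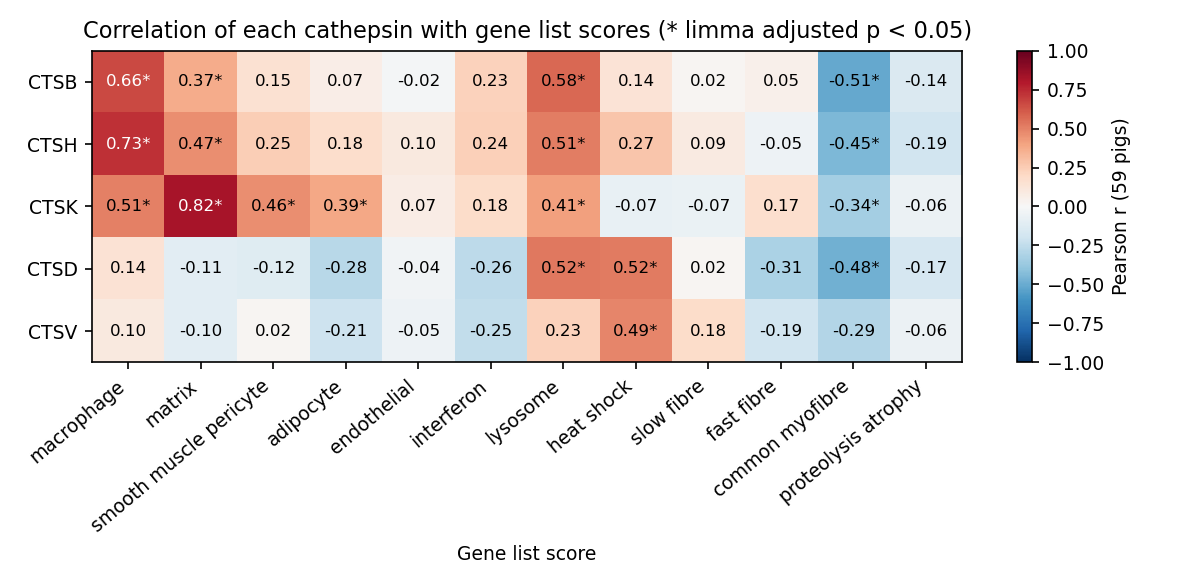
Pearson r over 59 pigs between each cathepsin (rows) and each gene list score (columns); red is positive, blue negative, and an asterisk marks a limma adjusted p under 0.05. CTSB and CTSH are reddest under the macrophage score (0.66 and 0.73), CTSK under the matrix score (0.82), CTSD under the lysosome and heat shock scores (both 0.52) and CTSV under the heat shock score (0.49).

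Macrophage and matrix scores were themselves correlated between pigs (r = 0.398, rho = 0.440), so both were put in 1 limma fit. CTSH kept a macrophage slope of 0.28 ± 0.04 log2 per SD given the matrix score (SE, n = 59, adjusted p = 5.93e-07), and CTSB kept 0.14 ± 0.02 (adjusted p = 5.36e-05), against 4.13% of all probe sets higher and 0.785% lower in this term. The matrix slopes of both given the macrophage score did not pass, at 0.09 ± 0.04 for CTSH (adjusted p = 0.128) and 0.03 ± 0.02 for CTSB (adjusted p = 0.446). The CTSH matrix slope did pass with the heat shock score as a further covariate (0.14 ± 0.04, adjusted p = 0.00524). For CTSK the matrix slope given the macrophage score was 0.27 ± 0.03 (adjusted p = 7.4e-11, against 7.93% of all probe sets higher and 5.87% lower), and the macrophage slope given the matrix score was 0.08 ± 0.03 (adjusted p = 0.104).

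Whether the macrophage slope exceeded the matrix slope within a gene was tested in the same fit. The difference was -0.19 ± 0.05 for CTSK (limma adjusted p = 0.00922, against 2.62% of all probe sets lower and 2.99% higher). It was 0.19 ± 0.07 for CTSH (adjusted p = 0.077) and 0.11 ± 0.04 for CTSB (adjusted p = 0.101), so neither passed. With the 2 scores together, 71.4% of the variance of CTSK between pigs was described, 56.9% of CTSH and 44.7% of CTSB, but 5.18% of CTSD and 3.46% of CTSV.

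**Figure D3:**
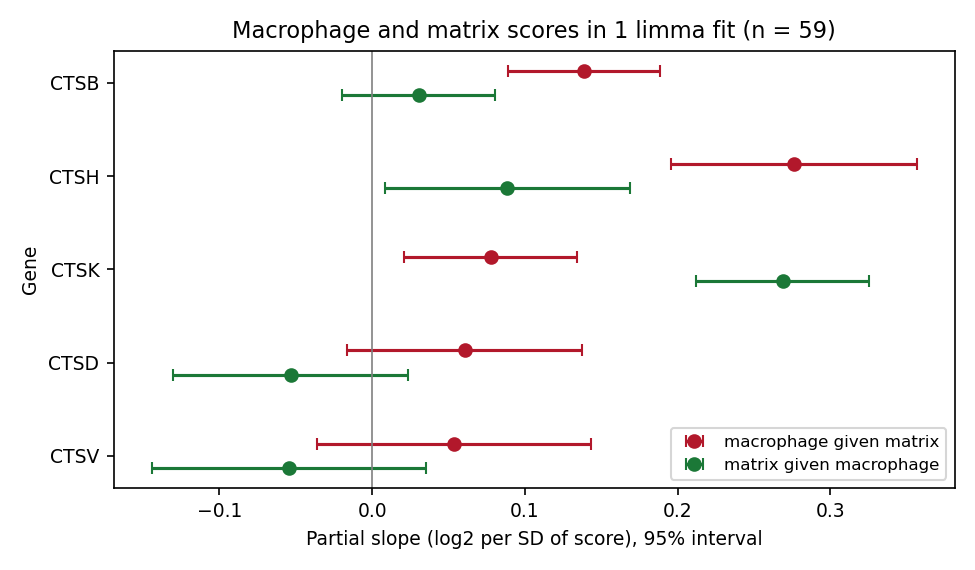
Partial slope of each cathepsin on the macrophage score given the matrix score (red) and on the matrix score given the macrophage score (green), in log2 per SD with 95% intervals from 1 limma fit over 59 pigs. CTSB and CTSH have the larger red slope (0.14 and 0.28) and CTSK the larger green slope (0.27); all intervals of CTSD and CTSV cross 0.

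Differences between the genes themselves were tested by permuting the arrays, for 10 pairs of genes and both scores, 20 differences in all and with unadjusted p-values. The matrix correlation of CTSK exceeded that of CTSB by 0.448 (permutation p = 2e-05) and that of CTSH by 0.357 (permutation p = 0.00014). The macrophage correlation of CTSH exceeded that of CTSK by 0.223 (permutation p = 0.0231), and CTSB exceeded CTSK by 0.151 (permutation p = 0.16). CTSB and CTSH differed by 0.072 for the macrophage score (permutation p = 0.361) and by 0.091 for the matrix score (permutation p = 0.242), with CTSH the higher in both. CTSD and CTSV differed by 0.042 for the macrophage score (permutation p = 0.784) and by 0.002 for the matrix score (permutation p = 0.988).

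CTSD and CTSV were higher in pigs with a higher heat shock score, which summarises 15 chaperone genes. CTSD gained 0.14 ± 0.03 log2 per SD (SE, n = 59, limma adjusted p = 0.000134), with r = 0.517 (permutation p = 2e-05) and rho = 0.479 (permutation p = 0.0001). CTSV gained 0.16 ± 0.04 (limma adjusted p = 0.00031), with r = 0.491 (permutation p = 6e-05) and rho = 0.412 (permutation p = 0.00119). These 2 calls of 5 stand against 23.1% of all probe sets higher and 22% lower with this score, so many genes moved with it. Without the 2 most extreme pigs, 30 and 36, r was 0.467 for CTSD and 0.405 for CTSV, and both calls were kept there and without pigs 36 and 52.

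CTSH did not pass with the heat shock score (r = 0.274, permutation p = 0.0367, rho = 0.189, p = 0.155, limma adjusted p = 0.0652). CTSB (r = 0.136, permutation p = 0.307, rho = -0.031, p = 0.817) and CTSK (r = -0.075, permutation p = 0.573, rho = -0.117, p = 0.379) did not pass either. Of the 15 heat shock genes, 12 passed as positive with CTSD and 12 with CTSV, at median r of 0.458 and 0.445. BAG3, a co-chaperone of chaperone-assisted autophagy, had r = 0.639 with CTSD and 0.481 with CTSV. DNAJA1, an HSP70 co-chaperone, had r = 0.608 with CTSD and 0.545 with CTSV.

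The genes most like CTSD were subunits of the proteasome, the barrel-shaped protease of the cytosol and nucleus. Over 4923 named genes, the highest correlations were with PSMB1 (r = 0.835), PSMB3 (0.824), PSMD8 (0.819), PSMA1 (0.817) and GSR, the glutathione reductase gene (0.817), each with a limma adjusted p of 1.38e-11 or less. Of 33 measured proteasome genes, a list chosen after these neighbours were seen, 26 passed as positive with CTSD at a median r of 0.646. Over all probe sets the median was 0.003 and 21.3% passed as positive. The 26 include PSMB1, PSMB3, PSMD8 and PSMA1, which prompted the list, so the count is no independent check of them. The inducible subunits PSMB10 and PSMB8, which replace standard subunits under interferon, had the lowest r, at -0.131 and -0.112. The median r of the same 33 genes was 0.253 with CTSB, 0.223 with CTSV, 0.196 with CTSH and 0.037 with CTSK. CTSD was most opposed to NREP (r = -0.731), ATL2 (-0.716) and LOC100514494 (-0.695).

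CTSV had weaker neighbours than the other cathepsins. Its highest correlations were with the RNA-binding protein genes HNRNPF (r = 0.666) and SRSF9 (0.635), the mRNA export gene RAE1 (0.660), the Golgi protein gene ACBD3 (0.645) and RAB1A (0.626), a GTPase of transport to the Golgi. Limma adjusted p-values for these 5 lay between 4.86e-05 and 8.96e-05. Pigs 36 and 52 carried part of the size, since r for HNRNPF was 0.564 without them. The lowest were LOC100514494 (r = -0.591), LMF2 (-0.579) and CHTOP (-0.561).

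CTSB and CTSH shared neighbours. For CTSB the highest correlations were with CSTB (r = 0.885), which encodes the cathepsin inhibitor stefin B, LITAF (0.837), the actin-branching subunit gene ARPC1B (0.823), the lysosomal acid lipase gene LIPA (0.802) and SRGN (0.797), the proteoglycan of secretory granules. For CTSH they were with the actin-capping gene CAPG (0.885), SRGN (0.879), S100A11 (0.879), ANXA5 (0.870) and ARPC1B (0.858). CSTB also reached r = 0.856 with CTSH. Without pigs 36 and 52, CTSB with CSTB was at 0.867 and CTSH with CAPG at 0.856. Both genes were lowest with PDE4C (-0.644 for CTSB and -0.588 for CTSH) and RHBDD3 (-0.608 and -0.594), beside FXR2 for CTSB (-0.644) and FBXO31 for CTSH (-0.617).

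CTSK had members of the matrix list among its nearest genes. It correlated most with COL6A3, a chain of collagen VI (r = 0.859), FN1, which encodes fibronectin (0.858), ITM2C (0.835), RCN1, a calcium-binding protein of the endoplasmic reticulum (0.830), and the intermediate filament gene VIM (0.829). Of these, COL6A3 and FN1 belong to the matrix list. Both also passed as positive with CTSH (r = 0.663 and 0.661) and CTSB (0.606 and 0.586). Other matrix genes, such as COL1A2 (r = 0.098) and COL15A1 (0.262), did not pass with CTSK. The lowest were FAM193A (r = -0.580), VMO1 (-0.570) and T (-0.564). CTSK alone of the 5 passed with the smooth muscle and pericyte score (r = 0.461, permutation p = 0.00035, rho = 0.404, p = 0.00162, limma adjusted p = 0.00916, against 3.31% of all probe sets higher) and with the adipocyte score (r = 0.390, permutation p = 0.00229, rho = 0.351, p = 0.00654, limma adjusted p = 0.0208, against 5.87%). Lower calls made up 0.133% and 9.91% of probe sets. The smooth muscle and pericyte call ended without pigs 12 and 19 (r = 0.352, adjusted p = 0.126). The adipocyte call was kept without pigs 43 and 44 (r = 0.379, adjusted p = 0.0294). The adipocyte score rests on FABP4, CFD, CIDEA and LEP alone.

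**Figure D4:**
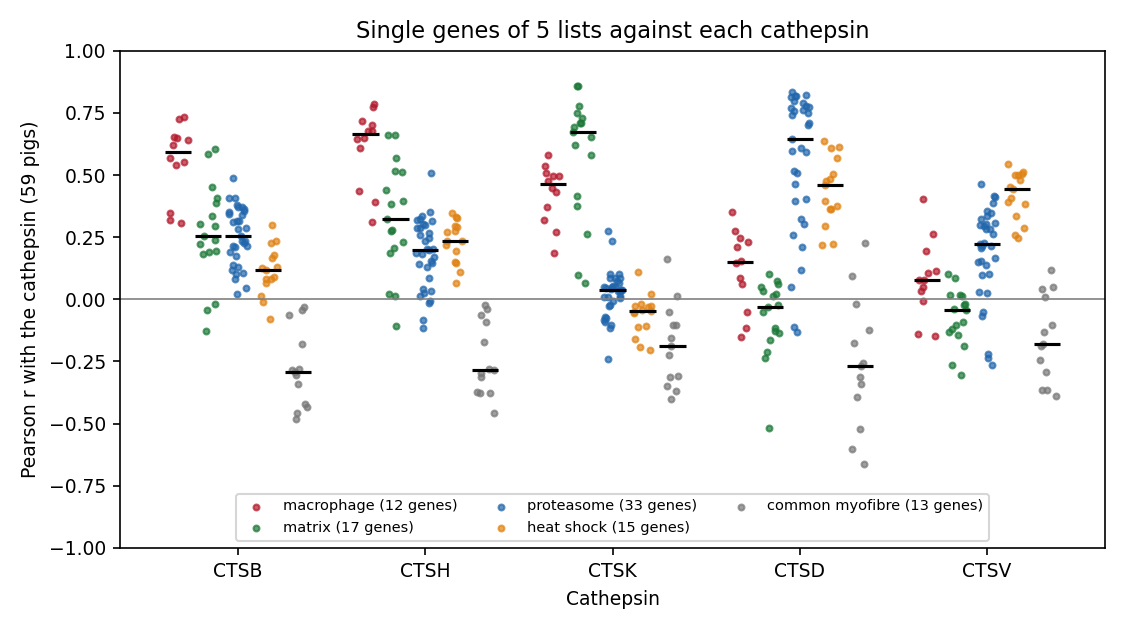
Pearson r over 59 pigs of each cathepsin with the single genes of 5 lists; each point is 1 gene and the black bar is the list's median. Macrophage genes are highest for CTSB and CTSH (medians 0.593 and 0.663), matrix genes for CTSK (0.671), proteasome genes for CTSD (0.646), and heat shock genes for CTSD and CTSV (0.458 and 0.445); the proteasome list was chosen after the neighbours of CTSD were seen.

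No cathepsin passed as higher in pigs with higher muscle fibre scores. On the slow fibre score 0 of 5 passed in limma, with 0 at an unadjusted p under 0.05, against 2.93% of probe sets higher and 2.04% lower, and r lay between -0.066 for CTSK and 0.180 for CTSV. On the fast fibre score 0 of 5 passed, with 1 at an unadjusted p under 0.05, against 16.3% of probe sets higher and 10.1% lower. That 1 was CTSD, at r = -0.315 (permutation p = 0.0147), rho = -0.363 (p = 0.00492) and a limma adjusted p of 0.0513. With the first principal component of unlisted probe sets as covariate its slope was 0.01, against -0.09 log2 per SD without it. Without pigs 41 and 72 it passed, at r = -0.354 (limma adjusted p = 0.0258), as did CTSV at r = -0.322 (0.0461).

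On the score of 13 genes common to all fibres, 4 of 5 cathepsins were lower, against 17.1% of all probe sets lower and 15.3% higher. The list's genes had a median pairwise r of 0.246. Singly, 5 of the 13 passed as negative with CTSB, 4 with CTSD, 4 with CTSH, 2 with CTSK and 3 with CTSV. The share of all probe sets negative was 10.6% with CTSB, 17.4% with CTSD, 11.9% with CTSH, 4.63% with CTSK and 9.15% with CTSV. MYOM1 passed as negative with CTSB (r = -0.431), CTSD (-0.662), CTSH (-0.456) and CTSV (-0.363). RYR1 passed as negative with the same 4, at -0.342, -0.520, -0.379 and -0.364. Titin, nebulin and desmin passed with none of the 5 cathepsins. CTSD was at -0.13 ± 0.03 log2 per SD (SE, n = 59, limma adjusted p = 0.00115), with r = -0.478 (permutation p = 0.00018) and rho = -0.483 (p = 0.0002). CTSB was at -0.12 ± 0.03 (limma adjusted p = 0.000445), with r = -0.515 (permutation p = 8e-05) and rho = -0.389 (p = 0.00265). CTSH was at -0.19 ± 0.05 (limma adjusted p = 0.00229), with r = -0.450 (permutation p = 0.00043) and rho = -0.340 (p = 0.00945). CTSK was at -0.12 ± 0.04 (limma adjusted p = 0.0267), with r = -0.341 (permutation p = 0.00921) and rho = -0.302 (p = 0.0205). CTSV did not pass (r = -0.290, permutation p = 0.026, rho = -0.136, p = 0.305, limma adjusted p = 0.0654).

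Of these 4 calls, 3 rested on pigs 36 and 52, whose common fibre scores were -3.84 and -1.92 SD. Without both pigs the count was 1 of 5, with CTSD called at -0.10 ± 0.03 (limma adjusted p = 0.0286). CTSD in turn lost its call over all pigs with the first principal component of unlisted probe sets as covariate (-0.05 ± 0.03, adjusted p = 0.245). Without the 2 pigs, CTSB slope on the common myofibre score was -0.06 ± 0.03 (adjusted p = 0.0935), CTSH at -0.10 ± 0.05 (0.161), CTSK at -0.08 ± 0.05 (0.246) and CTSV at -0.02 ± 0.04 (0.831). Pig 36 also had the highest CTSB, CTSH and CTSV, a macrophage score of 2.03 SD and a heat shock score of 2.73 SD. Over all pigs, 36 and 52 included, all 4 calls were kept with the heat shock score as covariate. The slopes were -0.12 for CTSB, -0.10 for CTSD, -0.17 for CTSH and -0.14 for CTSK (limma adjusted p from 0.001 to 0.0163). Given the macrophage score, and again over all pigs, the partial r with the common fibre score was -0.437 for CTSB and -0.461 for CTSD. It was -0.347 for CTSH, -0.226 for CTSK and -0.274 for CTSV. Neither was computed without pigs 36 and 52. Without pigs 29 and 36, the 2 with the most extreme common fibre scores, r was -0.510 for CTSD, -0.386 for CTSB, -0.386 for CTSH, -0.268 for CTSK and -0.201 for CTSV.

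**Figure D5:**
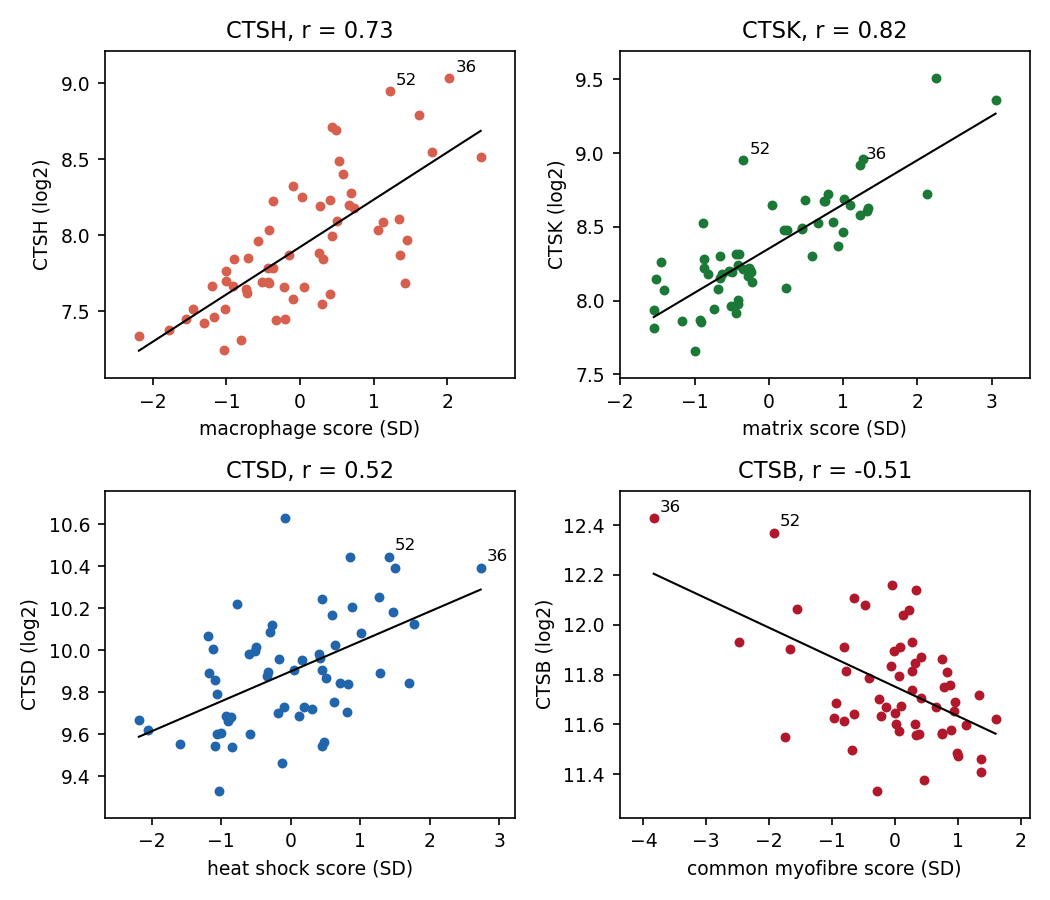
Log2 value of a cathepsin against a gene list score (in SD) for 59 pigs, with the least squares line; CTSH with the macrophage score (r = 0.73), CTSK with the matrix score (0.82), CTSD with the heat shock score (0.52) and CTSB with the common myofibre score (-0.51). Pigs 36 and 52 are numbered; in the last panel they sit at the upper left, at common fibre scores of -3.84 and -1.92 SD.

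Among themselves, CTSB, CTSH and CTSK varied together. CTSB and CTSH had r = 0.824 and rho = 0.744, CTSH and CTSK r = 0.716 and rho = 0.766, and CTSB and CTSK r = 0.668 and rho = 0.698 (permutation p = 1e-05 for each). Limma adjusted p-values for these 3 pairs were 5.39e-07 or less whichever gene served as the score. Among all probe sets 14.8% passed as positive with CTSB, 14% with CTSH and 10.8% with CTSK. As negative 10.6% passed with CTSB, 11.9% with CTSH and 4.63% with CTSK, and no pair of cathepsins passed as negative. Without pigs 36 and 52 the same 3 values of r were 0.767, 0.682 and 0.630. Given the macrophage and matrix scores, the partial r was 0.657 for CTSB with CTSH, 0.618 for CTSH with CTSK and 0.635 for CTSB with CTSK.

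CTSD was more loosely tied to the others. It correlated with CTSB at r = 0.424 (permutation p = 0.00081, rho = 0.357, p = 0.00576), with CTSH at r = 0.361 (permutation p = 0.00507, rho = 0.351, p = 0.00661) and with CTSV at r = 0.346 (permutation p = 0.00716, rho = 0.292, p = 0.0249). Limma adjusted p-values for these 3 pairs lay between 0.0036 and 0.0345. With CTSD 21.3% of all probe sets passed as positive and 17.4% as negative. Without pigs 36 and 52 r between CTSB and CTSD was 0.297, and without pigs 20 and 47 CTSD had r = 0.413 with CTSH and 0.346 with CTSV. The pigs left out were those farthest from the median of 1 gene of the pair, CTSB or CTSD. Pigs 36 and 52, the highest pair for CTSH and CTSV, stood at 10.39 and 10.45 log2 for CTSD. The pairs of CTSD with CTSH and CTSV were not computed without them, so how far they rest on these pigs was not tested.

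The remaining 4 of the 10 pairs did not pass. With CTSV 13.2% of all probe sets passed as positive and 9.15% as negative. CTSD and CTSK gave r = 0.135 (permutation p = 0.311) and rho = 0.121 (p = 0.363), or r = 0.140 without pigs 20 and 47. CTSV gave r = 0.196 with CTSB (permutation p = 0.137, rho = 0.020, p = 0.883) and 0.204 with CTSH (permutation p = 0.119, rho = 0.109, p = 0.407). Without pigs 36 and 52 these values of r were -0.070 and -0.020. CTSV and CTSK gave r = 0.085 (permutation p = 0.521, rho = 0.031, p = 0.815), or 0.091 without pigs 19 and 44. Given the macrophage and matrix scores, the partial r of CTSD was 0.486 with CTSB, 0.454 with CTSH, 0.349 with CTSK and 0.318 with CTSV. For CTSV it was 0.204 with CTSB, 0.249 with CTSH and 0.266 with CTSK. These partial values were not tested.

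Other cathepsins on the array were CTSC, CTSS, CTSZ and CTSW, of which CTSW, a protease of cytotoxic lymphocytes, fell below the filter. CTSS, which trims the invariant chain in antigen-presenting cells, ran from 8.61 to 11.28 log2 and had r = 0.884 with the macrophage score (limma adjusted p = 3.88e-18). CTSZ, a carboxypeptidase, ran from 7.27 to 9.38 log2 and had r = 0.716 (1.18e-08). With CTSH, CTSZ reached r = 0.847 and the brightest probe set of CTSS 0.755. CTSC, which activates granule proteases of leukocytes, did not pass with the macrophage score (r = 0.326, adjusted p = 0.0968), nor did any of its 4 probe sets pass with any of the 5 members.

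In the RefSeq table for Sscrofa11.1, CTSK and CTSS are neighbours with 0 genes between them. Their correlations ran in opposite order, with 0.822 for matrix and 0.507 for macrophage in CTSK, and 0.398 for matrix and 0.884 for macrophage in CTSS. The difference between these 2 genes was not tested.

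Of 3 measured cystatin genes, 2 were higher with the macrophage score, against 6.31% of all probe sets, and 2 with the matrix score, against 10%. CSTB had r = 0.673 with the macrophage score (limma adjusted p = 3.37e-07) and 0.353 with the matrix score (0.0384). CST3, the secreted cystatin C gene, had r = 0.694 with the matrix score (1.17e-07) and 0.439 with the macrophage score (0.0112), and r = 0.667 with CTSK, though its 3 probe sets ranged from 0.319 to 0.667 there. CST6 passed with neither score, at r = -0.126 and -0.127.

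Of 32 measured lysosomal genes outside the cathepsin family, 7 were higher and 0 lower with the macrophage score, against 6.31% and 1.5% of all probe sets, with a median r of 0.134 beside -0.014 over all probe sets. The highest were the ganglioside activator gene GM2A (r = 0.813), LIPA (0.773) and the acid nuclease gene DNASE2 (0.771). The lowest were IGF2R (-0.309), which sorts enzymes to lysosomes, ATP6V0D1 (-0.276) and MCOLN1 (-0.273), none of which passed. With the matrix score 9 were higher and 1 lower, against 10% and 5.55% of all probe sets, with a median r of 0.059 beside -0.035 over all probe sets. The highest were LAPTM4A (0.579), LIPA (0.563) and GUSB (0.478). The lower one was ATP6V0D1, a subunit of the proton pump (-0.441), followed by M6PR (-0.332) and IGF2R (-0.323), which did not pass.

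With the lysosome score itself 4 of the 5 cathepsins were higher, against 9.51% of all probe sets higher and 4.35% lower. CTSB had r = 0.575 and rho = 0.590 (permutation p = 1e-05 for each, limma adjusted p = 0.000538). CTSD had r = 0.525 (permutation p = 5e-05, rho = 0.481, p = 0.00016), CTSH 0.509 (permutation p = 6e-05, rho = 0.509, p = 7e-05) and CTSK 0.408 (permutation p = 0.00122, rho = 0.421, p = 0.00108), with limma adjusted p-values from 0.00182 to 0.0169. CTSV had r = 0.229 (permutation p = 0.0811, rho = 0.212, p = 0.106, limma adjusted p = 0.212). Without pigs 5 and 52 CTSB alone passed (r = 0.521, limma adjusted p = 0.0104), and CTSD, CTSH and CTSK stood at adjusted p of 0.0533, 0.0602 and 0.0753. The list's genes had a median pairwise r of 0.056, and its score correlated with the macrophage score at r = 0.512.

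The score of calpain, autophagy and atrophy genes, which holds no proteasome subunit, passed with 0 of 5 cathepsins in limma. On it 0 had an unadjusted p under 0.05, against 11.3% of probe sets higher and 6.09% lower. Its r lay between -0.190 for CTSH and -0.057 for CTSV. The genes of this list had a median pairwise r of 0.053, so they shared little variation for a score to capture. Endothelial and interferon scores also passed with 0 of 5, where 0 and 1 had an unadjusted p under 0.05. That 1 was CTSD with the interferon score, at r = -0.262 (permutation p = 0.0464, rho = -0.226, p = 0.0869, limma adjusted p = 0.274). The background was 2.5% higher and 0.709% lower for the endothelial score, and 2.14% higher and 0.4% lower for the interferon score.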

How the data were processed

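Total RNA of 59 muscles was labelled with biotin and hybridised to Affymetrix porcine arrays, per the labels' protocols. The deposited values are 1 number per probe set and array. The submitters' processing notes name GCRMA, and neither its version nor the log base is given in the sources used here. Values from 2.39 to 15.04 were taken as log2 values made by the authors. Differences of dim and of very bright probe sets may be compressed in such array values, which was not tested.

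The array's 24123 probe sets include 124 controls. A platform table gave 1 symbol for 10099, several for 198 and none for 13826, and 9989 symbols were updated through the Entrez identifier. The 12000 probe sets whose mean reached the array's median probe set (6.27 log2) were tested, and a gene's brightest probe set stood for it. A score's own genes were left out of its fit, which leaves 11960 to 11996 probe sets.

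Slopes were fitted with limma 3.58.1 in R 4.3.3 and adjusted by Benjamini-Hochberg over all probe sets tested. The slope fit and the permutation test were tested on simulated data. Python 3.11.15 with matplotlib 3.10.9 drew the figures. Genes were named by rule: the members, the 5 highest and 3 lowest correlated genes of each, the related cathepsins and cystatins, and the ends of the lysosome list. AIF1, CD163, COL1A2, COL15A1, THBS2, BAG3, DNAJA1, PSMB8 and PSMB10 were named after their values were seen. So were titin, nebulin, desmin, MYOM1 and RYR1 of the common fibre list. The members and lists were chosen with earlier results of these data known. Titles number the pigs, and nothing says that pigs share litters. The number of arrays limits the precision.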

Additional observations from a re-analysis of the deposited data

How the results depend on the processing

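Scaling, filter, score and regression alternatives, the 2 covariates and the added run without pigs 36 and 52, chosen after seeing the data, gave 320 alternative slopes and 55 alternative counts. Of the slopes, 285 kept direction and call, 15 gained or lost a call, and 20 changed sign without a call in either setting, among them CTSD (0.0145), CTSV (0.0304) and CTSH (0.0842) on the fast fibre score with the first principal component of unlisted probe sets as covariate. Of the counts, 8 changed. Beside 4 given further on, the matrix count was 2 with no filter, and the common fibre count was 5 with quantile normalisation, 3 without the 2 extreme pigs and 3 with Spearman's rho. The cause was not tested. The CTSB slope on the matrix score lost its call with no filter on dim probe sets (0.0777, adjusted p = 0.0656), and leaving out each pig in turn gave 0.0731 to 0.102. On the common fibre score, CTSK lost its call with the list's first principal component (-0.10, 0.0643), without the 2 extreme pigs (-0.10, 0.0976) and with Spearman's rho (-0.302, 0.068), and without pig 36 or 52 alone (adjusted p = 0.102 and 0.0656). Its range over pigs left out in turn was -0.13 to -0.10. CTSV gained a call with quantile normalisation (-0.11, 0.0237) and the list's first principal component (-0.11, 0.0208), also passed without any 1 of pigs 29, 30, 35, 41, 49, 56 and 66, and ranged from -0.109 to -0.0453 over pigs left out. With the first principal component of unlisted probe sets as covariate, which correlated with the heat shock score at 0.856 and with CTSD at 0.726 in size, CTSD (-0.0456, 0.245) and CTSH (-0.14, 0.0638) lost it and the count was 2. Without pigs 36 and 52 the count was 1, as CTSB (-0.0617), CTSH (-0.10) and CTSK (-0.0789) lost theirs. The fast fibre count was 2 without the 2 extreme pigs, with CTSD at -0.0955 and CTSV at -0.0974, and 1 with Spearman's rho (CTSD, rho = -0.363). Over pigs left out in turn it was 0 in 43 of 59 runs and 1 in the others. CTSD stayed without a call in 44 of the 59 and passed as lower in the rest. The matrix slope of CTSH given the macrophage score passed with the heat shock score as covariate (0.14, adjusted p = 0.00524). No paired analysis was possible because all pigs form 1 group. Each gene rests on 1 probe set, so no second one checks it.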
